A study of Mus musculus with 32 samples.

Results

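The Arp2/3 complex is the actin nucleator that starts a new filament from the side of an existing one. It has 7 subunits, and mice carry paralogous genes for 3 of them, so 10 genes were examined: Actr2, Actr3 and its paralog Actr3b, Arpc1a and Arpc1b, Arpc2, Arpc3, Arpc4, and Arpc5 and its paralog Arpc5l. The 10 were matched by gene symbol among the 18588 genes of the table, and all 10 had a row. Actr3b had been chosen by its rise in rTg4510 microglia, so its genotype difference is described here without a test. The other 9 genes were taken as the rest of the complex, and they were tested.

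Branched actin networks push out the cell edge, form the phagocytic cup and move endosomes, and microglia use all of these when they survey tissue and take up debris. The Arp2 and Arp3 proteins (Actr2, Actr3 or Actr3b) sit at the start of the new branch, and the Arpc subunits hold them and bind the mother filament. The complex is idle until a nucleation promoting factor such as WASP, WAVE or WASH activates it, and coronins, GMF and cofilin take branches apart again.

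rTg4510 mice carry a human tau transgene with the P301L mutation under a tetracycline operator promoter. A second transgene, a tTA activator under the CaMKIIα promoter, drives tau in forebrain neurons. WT littermates carried neither transgene and are labelled 129/FVB F1. All animals were female, and the labels name no treatment. For each library the forebrains of 8 to 10 mice had been pooled and microglia captured with CD11b MicroBeads. Ages were 2, 4, 6 and 8 months, with 4 libraries for each genotype and age. The authors excluded 4 libraries that failed RNAseq QC (replicate 3 of both genotypes at 4 months and replicate 4 of both at 8 months), which leaves 28, with 4 libraries per genotype at 2 and 6 months and 3 at 4 and 8 months.

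Values are log2 gene signals, normalized so that each library has a median of 5.63. The signals are not per length, so levels of different genes are not compared. The paper gives an approximate read number common to all samples. Totals of single libraries are not given, so differences in depth between libraries are unknown. Among the fixed markers the microglial list was led by Cx3cr1 (mean signal 13.57), while the leading neuronal marker Snap25 had a mean signal of 3.99. Other lists had stronger leading markers: Slc1a3 of astrocytes (9.565), Mrc1 of border macrophages (9.437), Ngp of neutrophils (7.272), Cnp of oligodendrocytes (6.594) and Cldn5 of endothelial cells (6.483). Summed marker signals of some lists moved with genotype, given here as the log2 of the sum at 6 months. A sum is weighted towards its strongest markers. The 6 neutrophil markers ran from 8.83 to 10.21 in WT and from 7.22 to 7.89 in rTg4510 microglia. The 6 astrocyte markers ran from 10.22 to 10.46 and from 9.48 to 9.78. The 6 oligodendrocyte markers ran from 7.92 to 8.29 and from 7.21 to 7.74, and the 8 microglial markers from 14.98 to 15.13 and from 14.60 to 14.81. Taken singly at an FDR under 0.05, 0 neutrophil markers were higher and 5 lower, and 1 astrocyte marker was higher and 2 lower. Of the oligodendrocyte markers 0 passed, and of the microglial markers 2 were higher and 5 lower. Over all genes 19.1% were higher and 14.9% lower. The sums of the neuronal, endothelial, border macrophage and T and B cell lists overlapped between genotypes at 6 months. At 4 months the border macrophage sums were apart (10.30 to 11.07 in WT and 9.91 to 10.185 in rTg4510 microglia). The neuronal sums were apart at 4 months too (5.76 to 6.42 and 4.695 to 5.71). The oligodendrocyte sums overlapped at 2, 4 and 8 months. The share of all signal held by the 10 strongest genes was 39.0% to 46.4% in WT libraries and 30.3% to 40.1% in rTg4510 libraries. Their part in the results below was not tested. In RNA from pooled cells, fewer cells of a type and less marker RNA per cell cannot be told apart. For microglia, the paper reports more total RNA per cell in transgenic than in WT mice, and more microglia at the later ages. Why the microglial marker sum was lower was not tested.

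Actr3b (chromosome 5, 25759941 to 25850691, GRCm38.p6) encodes an Arp3 paralog whose coding sequence is as long as that of Actr3, at 1257 bases, and identical at 76.3% of them. Whether reads could be told apart matters more for Actr3 itself (chromosome 1, 125392905 to 125435727), because a processed copy of it, Actr3-ps, lies on chromosome X (81820383 to 81822920). The same 90-base coding stretch of the 3 genes, coding bases 583 to 672 of Actr3, shows both cases. Capitals mark bases unlike Actr3, 2 in the pseudogene and 19 in Actr3b.
Actr3: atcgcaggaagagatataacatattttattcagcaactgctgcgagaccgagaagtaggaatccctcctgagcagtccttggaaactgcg
Actr3-ps: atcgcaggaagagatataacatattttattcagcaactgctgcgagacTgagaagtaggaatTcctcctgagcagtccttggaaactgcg
Actr3b: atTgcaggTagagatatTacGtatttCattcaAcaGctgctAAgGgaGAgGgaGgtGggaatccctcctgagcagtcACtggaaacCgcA

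Of the 50-base stretches of the Actr3 transcript, 49.8% occurred letter for letter in a transcript of another gene, whereas 0% of those of Actr3b did. The paper's reads were paired-end and longer than 50 bases, and the share at their length was not computed. Actr3-ps matched Actr3 at 98.8% of 2348 aligned bases and has its own row in the table, where its mean signal was 10.58 in WT and 11.09 in rTg4510 microglia at 6 months. The row of Actr3 is uncertain for this reason. Shared stretches made up 12.8% of Arpc1b (mostly with the pseudogene Gm5637), 10.5% of Arpc4 (shared with Ttll3) and at most 2.0% of each of the remaining subunits. Less exact pseudogene copies also had rows of their own. Gm16372 matched Arpc5 at 93.4% of 454 bases, with means of 6.81 in WT and 7.48 in rTg4510 microglia at 6 months. Gm6828 and Gm9729 matched Actr2 at 94.1% of 1189 and 95.1% of 265 bases. Whether such copies affect the rows of Arpc5 and Actr2 was not tested.

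Actr3b was close to the lowest measurable value in WT microglia and well above it in rTg4510 microglia from 4 months on. In WT libraries its log2 signal was 2.17, 1.64, 1.88 and 1.96 at 2 months, 1.59, 1.80 and 1.54 at 4 months, 2.00, 1.70, 2.02 and 2.70 at 6 months, and 2.23, 2.47 and 2.17 at 8 months. In rTg4510 libraries it was 2.56, 2.47, 2.25 and 2.79 at 2 months, 5.19, 4.75 and 4.88 at 4 months, 4.30, 4.78, 4.85 and 4.81 at 6 months, and 4.49, 4.91 and 4.53 at 8 months. At each of the 4 ages every rTg4510 library lay above every WT library.

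Ordered by mean, the groups ran from WT at 4 months (1.65 ± 0.14, SD, n = 3) through WT at 2 months (1.91 ± 0.22, n = 4), WT at 6 months (2.10 ± 0.42, n = 4), WT at 8 months (2.29 ± 0.16, n = 3) and rTg4510 at 2 months (2.52 ± 0.22, n = 4) to rTg4510 at 8 months (4.64 ± 0.23, n = 3), 6 months (4.69 ± 0.26, n = 4) and 4 months (4.94 ± 0.23, n = 3). Neighbours in this order overlapped in range except rTg4510 at 2 and at 8 months. No kept library lay between 2.79, the highest of the 5 low groups, and 4.30, the lowest of the 3 high groups. The libraries of the 5 low groups all lay within 3 count steps of the lowest value of their library, so a fold is given as a lower bound against that floor of 3 counts per library. On this bound Actr3b was at least 3.56-fold higher in rTg4510 microglia at 4 months, at least 2.72-fold at 6 months and at least 2.82-fold at 8 months. No fold is given at 2 months, where both genotypes were near the floor.

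The 4 libraries that failed QC took no part in the choice of Actr3b. There its signal was 1.78 (WT) and 5.06 (rTg4510) at 4 months, and 2.14 (WT) and 4.28 (rTg4510) at 8 months. Both WT values fell in the low range and both rTg4510 values far above it, with 1 library of each kind per age and no test.

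**Figure D1:**
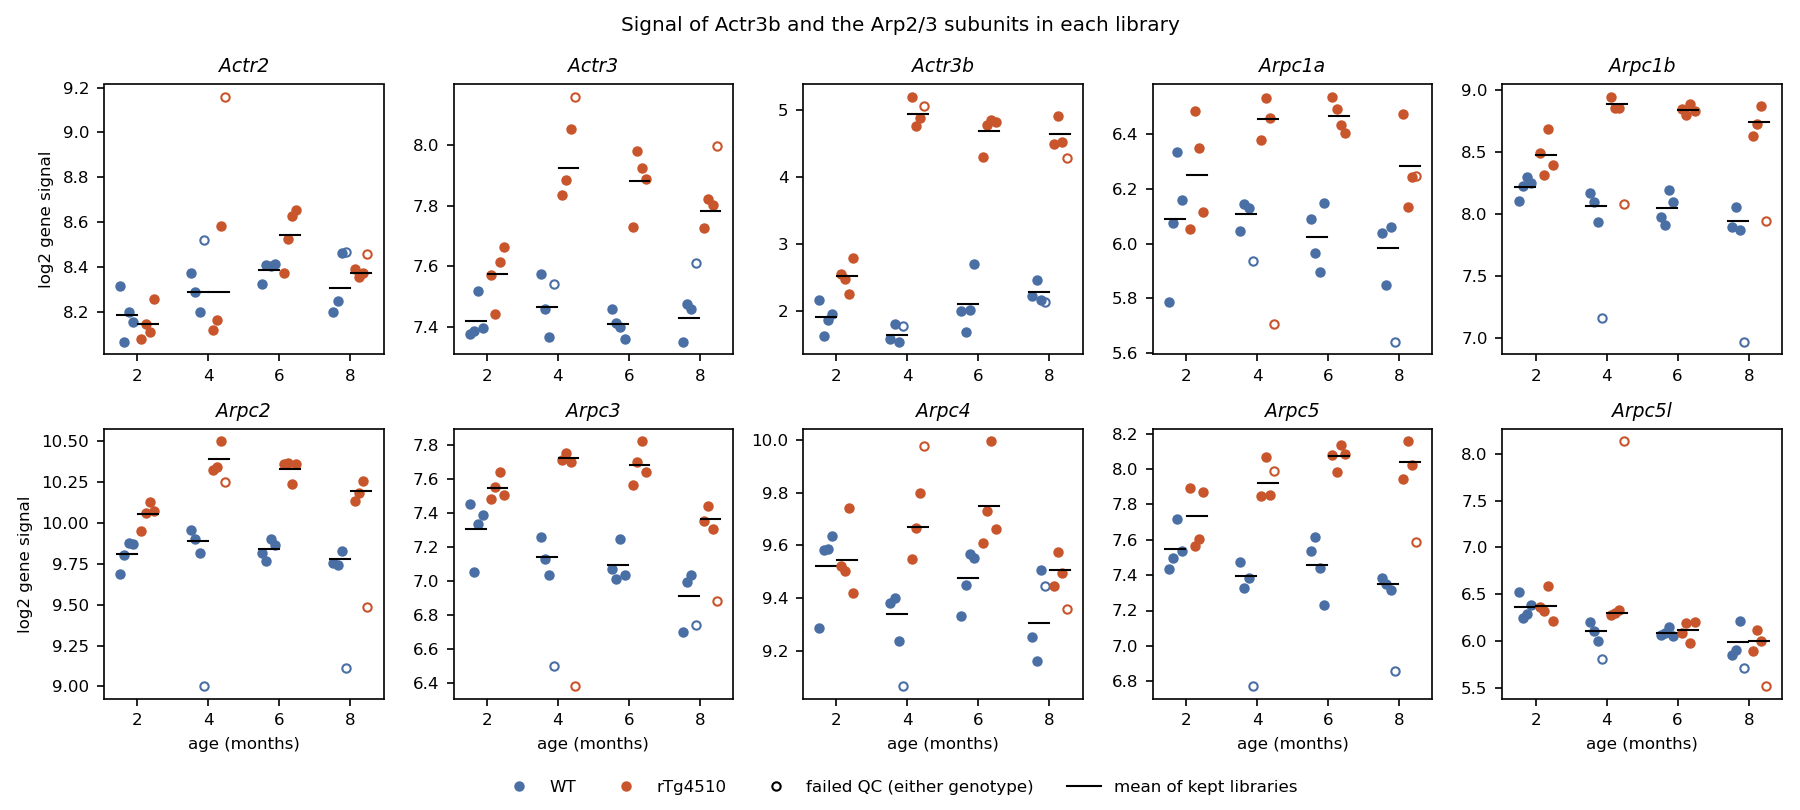
Log2 gene signal (vertical axis, scaled for each gene) of the 10 genes in each library by age in months (horizontal axis). Blue points are WT and red points rTg4510 libraries, open points are the 4 libraries that failed QC, and bars are means of the kept libraries. Actr3b is near 2 in all WT libraries and above 4 in all rTg4510 libraries from 4 months on, while Actr2 and Arpc5l overlap between genotypes at most ages.

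Most other subunits rose as well, by less. At 2 months 1 of the 9 tested subunits was higher in rTg4510 microglia at an FDR under 0.05, while 4.76% of all genes were. At 4 months the count was 7 of 9 (14.1% of all genes), at 6 months 7 of 9 (19.1%) and at 8 months 5 of 9 (16.0%). None was lower at any age with limma at that FDR or at an unadjusted p under 0.05. The median log2 fold change of the 9 was 0.16, 0.46, 0.47 and 0.35 at 2, 4, 6 and 8 months, beside 0.01, -0.04, -0.04 and -0.01 over all genes.

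DEGs, which also needed a change above 1.5 fold, were fewer: 0 of 9 subunits at 2 months (1.58% of all genes were DEGs with higher signal; 5 subunits had an unadjusted p under 0.05 and moderated variances gave 0 too), 1 of 9 at 4 months (9.47%), 3 of 9 at 6 months (11.3%) and 2 of 9 at 8 months (10.5%). All rTg4510 libraries lay above all WT libraries for 3 of 9 subunits at 2 months (7.49% of all genes), 8 at 4 months (19.1%), 7 at 6 months (18.2%) and 6 at 8 months (21.2%). Quantile normalization in place of median normalization lowered the median of the 9 to 0.14, 0.35, 0.38 and 0.29, and left 1 DEG among them at 6 months. With the 4 failed libraries included, 0, 6, 5 and 3 of the 9 passed the FDR at the 4 ages, and DEGs numbered 4 at 4 months.

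**Figure D2:**
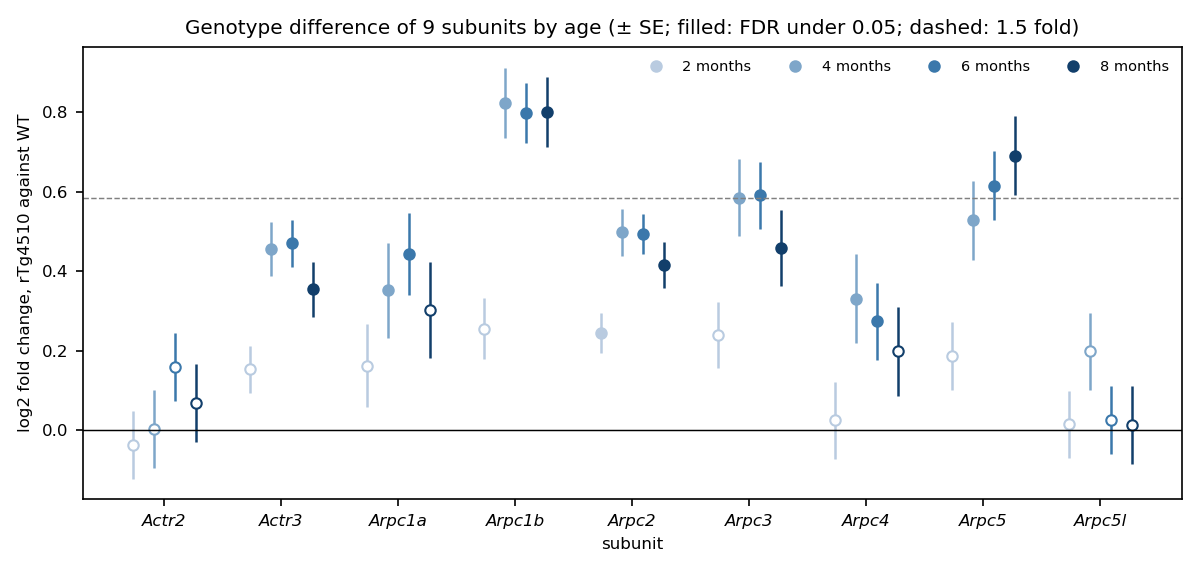
Log2 fold change of rTg4510 against WT microglia (vertical axis) for the 9 tested subunits (horizontal axis), with 4 ages from light to dark and bars of ± 1 SE. Filled points had an FDR under 0.05 and the dashed line is a 1.5-fold change. Arpc1b is above the line at 4, 6 and 8 months, at 0.82, 0.80 and 0.80, and Actr2 has no filled point.

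Arpc1b, 1 of the pair of genes for the WD-repeat subunit and known for its high expression in blood and immune cells, showed the largest change of the 9 at each age. In WT libraries its signal was 8.10, 8.23, 8.30 and 8.25 at 2 months, 8.17, 8.10 and 7.93 at 4 months, 7.98, 7.91, 8.19 and 8.10 at 6 months, and 7.89, 8.06 and 7.87 at 8 months. In rTg4510 libraries it was 8.50, 8.32, 8.69 and 8.39 at 2 months, 8.95, 8.86 and 8.86 at 4 months, 8.85, 8.80, 8.89 and 8.83 at 6 months, and 8.63, 8.73 and 8.87 at 8 months. The genotypes did not overlap at any age. The rise was 0.82 ± 0.09 (log2, SE, n = 3 per genotype, 1.77 fold, FDR = 3.68e-07) at 4 months, 0.80 ± 0.08 (n = 4, FDR = 3.68e-08) at 6 months and 0.80 ± 0.09 (n = 3, FDR = 4.25e-07) at 8 months. At 2 months it was 0.26 ± 0.08 and missed the threshold (FDR = 0.0527). Arpc1b was the one DEG of the 9 at 4 months, and it stayed a DEG at 4, 6 and 8 months under quantile normalization. Its pseudogene Gm5637 had mean signals of 7.81 in WT and 8.53 in rTg4510 microglia at 6 months, and the row of Arpc1b is uncertain to the extent of the shared stretches.

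Arpc1a, the second gene for that subunit, lies 5499 bases upstream of Arpc1b on chromosome 5 (145083869 to 145108756, with Arpc1b at 145114256 to 145128186). It rose less. At 6 months its signal was 6.09, 5.97, 5.90 and 6.15 in WT and 6.54, 6.49, 6.44 and 6.41 in rTg4510 libraries, without overlap (0.44 ± 0.10, FDR = 0.00215). At 4 months the difference was 0.35 ± 0.12 (FDR = 0.0385). That call was lost without any one of 5 of the 6 libraries of that age (all but rTg4510 replicate 1, with FDR up to 0.122), and with all 32 libraries (0.21, FDR = 0.318). At 8 months it was 0.30 ± 0.12 and did not pass (FDR = 0.0718), while a replicate block gave an FDR of 0.0263, and leaving out rTg4510 8 months replicate 2 or WT 2 months replicate 1 gave 0.0498 and 0.0384.

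The 250 bases before the transcription starts of these neighbours are shown, on the plus strand from the RefSeq table for GRCm38.p6. Whether these letters bear on how much either gene changed was not tested. The first lies at chr5:145114006-145114255 and the second at chr5:145083619-145083868. Capitals mark GGGCGG (the GC box) on either strand.
Arpc1b: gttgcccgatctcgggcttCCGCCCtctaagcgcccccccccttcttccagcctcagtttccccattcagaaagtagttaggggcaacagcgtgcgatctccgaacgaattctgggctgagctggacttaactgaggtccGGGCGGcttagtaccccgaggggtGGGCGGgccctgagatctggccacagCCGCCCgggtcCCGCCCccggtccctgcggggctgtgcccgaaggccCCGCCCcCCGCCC
Arpc1a: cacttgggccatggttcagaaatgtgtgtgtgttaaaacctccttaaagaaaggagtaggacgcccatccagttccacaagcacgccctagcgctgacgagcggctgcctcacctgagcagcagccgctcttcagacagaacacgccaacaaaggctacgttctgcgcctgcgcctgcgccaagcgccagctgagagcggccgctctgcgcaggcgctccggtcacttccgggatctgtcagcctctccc

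Arpc1b held 7 such matches and Arpc1a 0. Promoters were found for 8 of the 10 members, and GGGCGG was present in 5 of these 8 (Actr2, Actr3, Arpc1b, Arpc2 and Arpc5) and in 55.5% of the 11802 promoters of table genes, 1 per gene. GAGGAA, the core bound by the myeloid factor PU.1, was in 0 of the 8 and in 22.8% of all, CCAAT in 2 of 8 (Actr2 and Arpc5) and 36.4%, and the CArG box of the serum response factor in 1 of 8 (Arpc4) and 1.1%. Both strands were searched, the marked matches do not overlap another motif, and a match is a description of letters in this window alone.

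Arpc2 and Arpc4 form the core that holds the complex together and contacts the mother filament. Arpc2 was the subunit that passed the FDR at 2 months. Its signal there was 9.69, 9.81, 9.88 and 9.87 in WT and 9.95, 10.06, 10.13 and 10.08 in rTg4510 libraries, with no overlap (0.24 ± 0.05, FDR = 0.00386). The call at 2 months was lost with quantile normalization (0.14, FDR = 0.157), with all 32 libraries (FDR = 0.915) and when the groups of 2 months alone were fitted (FDR = 0.105). Later differences were 0.50 ± 0.06 at 4 months (FDR = 1.32e-06), 0.49 ± 0.05 at 6 months (FDR = 1.06e-07) and 0.42 ± 0.06 at 8 months (FDR = 1.11e-05). At 8 months quantile normalization (0.14, FDR = 0.0962) and all 32 libraries (FDR = 0.115) ended the call.

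Arpc4 changed less and overlapped at 2 and 8 months. Its signal at 6 months was 9.33, 9.45, 9.57 and 9.55 in WT and 9.61, 9.73, 9.99 and 9.66 in rTg4510 libraries, so that the lowest rTg4510 library was just above the highest WT library (0.27 ± 0.10, FDR = 0.0343). At 4 months it was 0.33 ± 0.11 (FDR = 0.0373). Both calls rest on single libraries: the one at 4 months was lost without any of 5 of the 6 libraries of that age (FDR up to 0.157), the one at 6 months without rTg4510 replicate 2 or 3 or WT replicate 1 or 2 (FDR up to 0.145), and both under quantile normalization (0.13 and 0.05).

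Arpc3 encodes the subunit that bridges to Arp3. At 6 months it measured 7.07, 7.02, 7.25 and 7.03 in WT and 7.56, 7.70, 7.82 and 7.64 in rTg4510 libraries, apart by more than the spread within either genotype (0.59 ± 0.08, FDR = 9.01e-06, 1.51 fold). At 4 months its change of 0.58 ± 0.10 (FDR = 9.70e-05) was just short of 1.5 fold, and at 8 months it was 0.46 ± 0.10 (FDR = 0.00105). With all 32 libraries the FDR became 0.177, 0.0501 and 0.257 at 4, 6 and 8 months, and with only the groups of 8 months fitted it was 0.0824.

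Arpc5 and Arpc5l are alternative genes for the smallest subunit, and they parted. Arpc5 at 8 months was 7.38, 7.35 and 7.32 in WT and 7.94, 8.16 and 8.02 in rTg4510 libraries. Its difference was 0.53 ± 0.10 (FDR = 0.000424) at 4 months, 0.62 ± 0.09 (FDR = 8.30e-06) at 6 months and 0.69 ± 0.10 (FDR = 1.58e-05, 1.61 fold) at 8 months, and at 2 months 0.19 ± 0.09 (FDR = 0.283). Arpc5l at 8 months was 5.85, 5.91 and 6.22 in WT and 5.90, 6.12 and 6.00 in rTg4510 libraries, fully mixed, with a difference of 0.01 ± 0.10 and a 95% interval from -0.19 to 0.22 that does not reach the values of Arpc5. It did not pass at any age in the 28 libraries. With all 32 libraries it passed at 4 months (0.73, FDR = 0.0412), where the failed rTg4510 library had a signal of 8.13 against 6.28 to 6.34 in the kept ones.

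Of the actin-related subunits that form the start of the branch, Actr3 was higher from 4 months on. At 6 months it was 7.46, 7.42, 7.40 and 7.36 in WT and 7.73, 7.98, 7.92 and 7.89 in rTg4510 libraries, with no overlap (0.47 ± 0.06, FDR = 1.91e-06). The differences at 4 and 8 months were 0.46 ± 0.07 (FDR = 3.01e-05) and 0.35 ± 0.07 (FDR = 0.000438). With only the groups of 4 months fitted, the FDR at that age was 0.0535. The row of Actr3-ps differed by a like amount at 6 months, 0.51, and what each of these rows counts cannot be told apart.

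Actr2, the single gene for Arp2, had signals of 8.32, 8.41, 8.40 and 8.41 in WT and 8.37, 8.52, 8.63 and 8.65 in rTg4510 libraries at 6 months, so the genotypes overlapped. Its difference was 0.16 ± 0.09 (95% interval -0.02 to 0.34, FDR = 0.165) at 6 months and -0.04, 0.00 and 0.07 at 2, 4 and 8 months, with intervals between -0.21 and 0.27. Under quantile normalization its value at 4 months was -0.10.

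The paralog pairs were compared within each library, which cancels differences in scale between libraries, and no p is given. Arpc1b minus Arpc1a had a mean of 2.02 ± 0.19 (SD) in WT and 2.38 ± 0.08 in rTg4510 microglia at 6 months (n = 4 each), a change of 0.36, with WT at 1.89 to 2.30 and rTg4510 at 2.31 to 2.46. The changes at 2, 4 and 8 months were 0.09, 0.47 and 0.50, and the genotypes overlapped at 2 and 8 months.

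Arpc5l minus Arpc5 fell with genotype at the later ages: its change was -0.17, -0.33, -0.59 and -0.68 at 2, 4, 6 and 8 months, and the genotypes were apart at 4, 6 and 8 months. At 8 months the 3 rTg4510 libraries lay between -2.04 and -2.02 and the WT libraries between -1.53 and -1.10. With all 32 libraries the change at 4 months was 0.03. Actr3b minus Actr3 changed by 2.84, 2.11 and 2.00 at 4, 6 and 8 months, values that depend on the floor of Actr3b and on its choice.

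**Figure D3:**
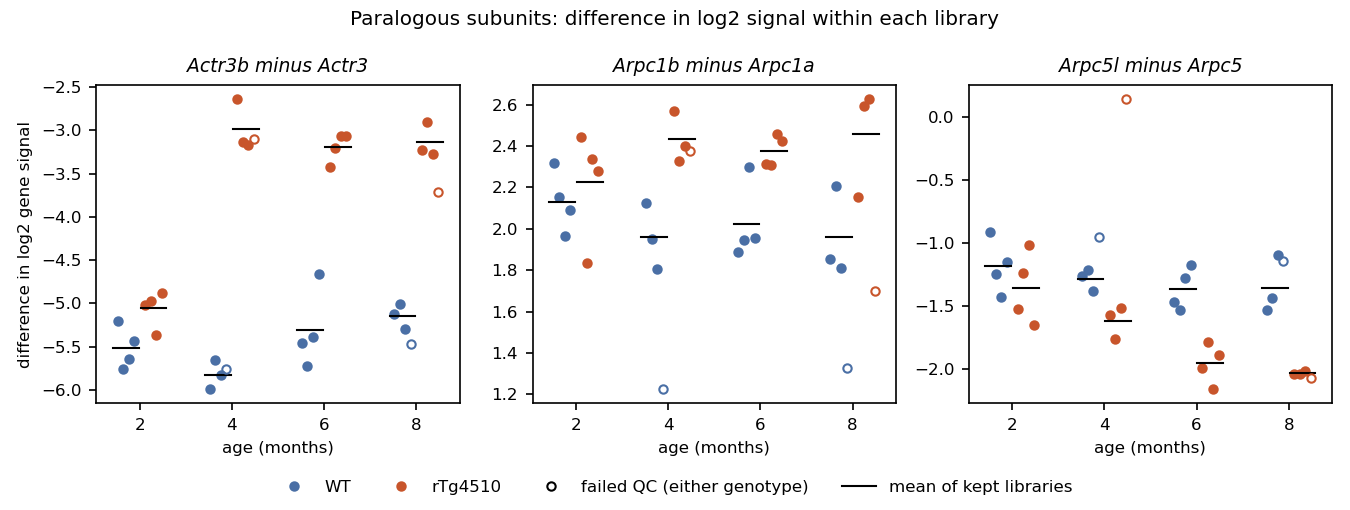
Difference in log2 gene signal between paralogous subunits within each library (vertical axes) by age in months (horizontal axes), WT in blue and rTg4510 in red, open points for libraries that failed QC and bars for means of kept libraries. From 4 months on, Actr3b minus Actr3 is higher and Arpc5l minus Arpc5 lower in all kept rTg4510 libraries than in all kept WT libraries of the age, and Arpc1b minus Arpc1a overlaps at 8 months.

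The genotype difference itself changed with age for 3 subunits. Between 2 and 4 months it grew with an FDR under 0.05 for 2 of the 9 (5.26% of all genes): Arpc1b by 0.57 ± 0.12 (FDR = 0.00411) and Actr3 by 0.30 ± 0.09 (FDR = 0.0452). The call for Actr3 ended with moderated variances (FDR = 0.0862), with the replicate block (FDR = 0.109) and without most of the single libraries, including those of other ages (FDR up to 0.147 without WT 4 months replicate 4). With all 32 libraries the FDR of Arpc1b was 0.376. Between 8 and 2 months it differed for Arpc1b (0.55 ± 0.12, FDR = 0.00401) and Arpc5 (0.50 ± 0.13, FDR = 0.0171), again 2 of 9, beside 6.65% of all genes. The replicate block ended the call of Arpc5 (FDR = 0.0828), as did leaving out rTg4510 8 months replicate 2 (FDR = 0.0613), and with all 32 libraries neither passed (FDR of 0.505 and 0.205). From 4 to 6 and from 6 to 8 months 0 of 9 passed with limma, and 0 had an unadjusted p under 0.05.

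Within a genotype, some subunits also differed between 8 and 2 months. In WT microglia 2 of the 9 were lower at 8 than at 2 months (3.39% of all genes): Arpc3 by -0.40 ± 0.09 (FDR = 0.0175) and Arpc5l by -0.37 ± 0.09 (FDR = 0.0264), and 0 were higher with limma or with moderated variances, 4 of the 9 having an unadjusted p under 0.05 in either direction. Neither WT call held without replicate 1 of 8 months (FDR of 0.119 and 0.147), and that of Arpc5l also ended without replicate 2 of 8 months or replicate 1 or 4 of 2 months. In rTg4510 microglia Arpc5l was lower by a like amount, -0.37 ± 0.09 (FDR = 0.00535), 1 of 9 beside 11.0% of all genes. Arpc5 (0.31 ± 0.09, FDR = 0.0225), Arpc1b (0.27 ± 0.08, FDR = 0.0239) and Actr3 (0.21 ± 0.06, FDR = 0.0226) were higher, 3 of 9 beside 10.6%. All 3 of these calls ended without rTg4510 2 months replicate 2 (FDR of 0.0790, 0.0846 and 0.0824) or without 8 months replicate 2, and those of Arpc1b and Actr3 also without 8 months replicate 3 (FDR of 0.135 and 0.0677). Arpc1b passed no longer without 2 months replicate 4 (FDR = 0.0671), nor Arpc5 without 2 months replicate 3 (FDR = 0.0675).

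Over the 28 libraries the signals of the 9 subunits were correlated in pairs with a median r of 0.65 (36 pairs, from -0.31 to 0.94), and after removal of the group means the median r was 0.29 (from -0.24 to 0.58). These are descriptions over libraries that share genotype and age. Arpc5l was in each of the 6 pairs with the lowest r before the group means were removed. After their removal the lowest pair was Arpc1a with Arpc5 (-0.24), and Arpc3 with Arpc5l had an r of 0.56.

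The genes with profiles most like that of Actr3b over the 28 libraries were Itgax (r = 0.984), Dcstamp (r = 0.981), Itgad (r = 0.980), Gla (r = 0.977) and Acaca (r = 0.976). Itgax and Itgad encode integrin alpha chains (CD11c and CD11d), Dcstamp a membrane protein of fusing myeloid cells, Gla the lysosomal alpha-galactosidase and Acaca acetyl-CoA carboxylase. Itgax had group means of 4.53, 4.52, 4.73 and 4.89 in WT and 5.73, 8.37, 8.17 and 8.08 in rTg4510 microglia at 2, 4, 6 and 8 months. Since these genes were picked for their likeness, their levels are a description. The most opposite profiles were those of Pdlim5 (r = -0.962), Mtss1 (r = -0.960) and Ceacam1 (r = -0.960), Mtss1 encoding a membrane-bending actin regulator. The 28 points share 2 genotypes and 4 ages, and with deviations from the group means the r of Itgax fell to 0.53 while the highest were Gm9130 (0.74), the gene with Entrez number 100038381 (0.73) and Commd3 (0.72). In its 5 low groups Actr3b lay within 3 count steps of the lowest value of each library. Its deviations there depend on that floor as well, which limits what these r values say about Actr3b. Without WT 6 months replicate 4, 3 of the 5 most alike genes were again among the 5.

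Genes that act on the complex were described at 6 months, when each genotype had 4 libraries. Among 8 measured nucleation promoting factors 0 were higher at an FDR under 0.05 (19.1% of all genes) and 2 were lower (14.9% of all genes), with a median log2 fold change of -0.15. These were Was, encoding the WASP protein of blood cells (-0.29 ± 0.11, FDR = 0.0449), and Wasf2, encoding the broadly expressed WAVE2 (-0.18 ± 0.07, FDR = 0.0447). Both calls were close to the threshold and depended on single libraries, the count being 0 without WT 6 months replicate 2, 3 or 4, rTg4510 6 months replicate 2 or 4, rTg4510 2 months replicate 3, WT 2 months replicate 4 or WT 4 months replicate 4. Neither was a DEG.

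The WAVE complex partners went both ways, 3 of 8 higher (19.1% of all genes) and 3 lower (14.9%). Brk1 (0.59 ± 0.10, FDR = 0.000108), Abi2 (0.43 ± 0.08, FDR = 0.00023) and Abi1 (0.28 ± 0.06, FDR = 0.00137) were higher. Abi3, an Abi family gene with high expression in microglia (-0.41 ± 0.08, FDR = 0.000345), was lower. So were Nckap1l (-0.27 ± 0.04, FDR = 1.26e-05) and Nckap1 (-0.80 ± 0.28, FDR = 0.0291). The signal of Nckap1 was low, with means of 3.88 in WT and 3.08 in rTg4510 microglia, and the genotypes overlapped at 6 months. The call for Nckap1 ended with quantile normalization (-0.49, FDR = 0.158) and without rTg4510 replicate 3 or 4 or WT replicate 1, 2 or 3 of that age (FDR up to 0.0964). In the WASH complex, which activates Arp2/3 on endosomes, 3 of 5 were higher, against the same 19.1% of all genes: Washc5 (0.45 ± 0.04, FDR = 5.80e-08), Washc2 (0.41 ± 0.08, FDR = 0.000262) and Washc3 (0.35 ± 0.10, FDR = 0.0133, and 0.0562 without rTg4510 6 months replicate 3).

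Of 9 inhibitors and branch disassembly factors, 5 were higher (19.1% of all genes), 0 lower (14.9%) and 4 did not pass at 6 months. Coro1c, a coronin, had the largest rise (1.45 ± 0.07, FDR = 1.78e-12), from a mean of 6.16 to 7.61. Cfl1, encoding cofilin, which severs filaments, rose by 0.93 ± 0.08 (FDR = 5.02e-09), Gmfb, a debranching factor, by 0.44 ± 0.12 (FDR = 0.00575) and Coro1a, the leukocyte coronin, by 0.41 ± 0.05 (FDR = 3.96e-07). Coro1c and Cfl1 were the DEGs of this list.

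Formins make unbranched filaments. Of 14 formins and other nucleators 5 were higher and 3 lower, beside 19.1% and 14.9% of all genes. Inf2 (2.51 ± 0.27, FDR = 1.84e-07), Fmn1 (1.65 ± 0.13, FDR = 3.36e-09) and Daam1 (1.40 ± 0.10, FDR = 3.69e-10) were higher. Each of these rose by more than any of the 9 tested Arp2/3 subunits, Inf2 from a low WT mean of 3.07. Fmn2 (-2.04 ± 0.59, FDR = 0.0101) was lower, with means of 3.61 in WT and 1.575 in rTg4510 microglia. The lowest values of the rTg4510 libraries at 6 months were 1.23 to 1.66, so the size of its change depends on that floor. Of the 7 other actin-related proteins, which serve dynactin and chromatin complexes, 0 passed in either direction at 6 months.

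Among 14 actins, capping and monomer-binding genes 9 were higher and 0 lower, where 19.1% and 14.9% of all genes were. Capg, encoding a barbed-end capping protein of macrophages, rose by 2.08 ± 0.14 (FDR = 2.21e-10), and the thymosins Tmsb10 and Tmsb4x, which hold actin monomers, by 0.93 ± 0.13 (FDR = 1.23e-05) and 0.62 ± 0.06 (FDR = 1.22e-07). Cap1, a monomer recycling factor, rose by 0.47 ± 0.11 (FDR = 0.00236). The median log2 fold change was 0.39 in this list and 0.41 in the list of inhibitors and branch disassembly, beside 0.47 for the 9 subunits.

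**Figure D4:**
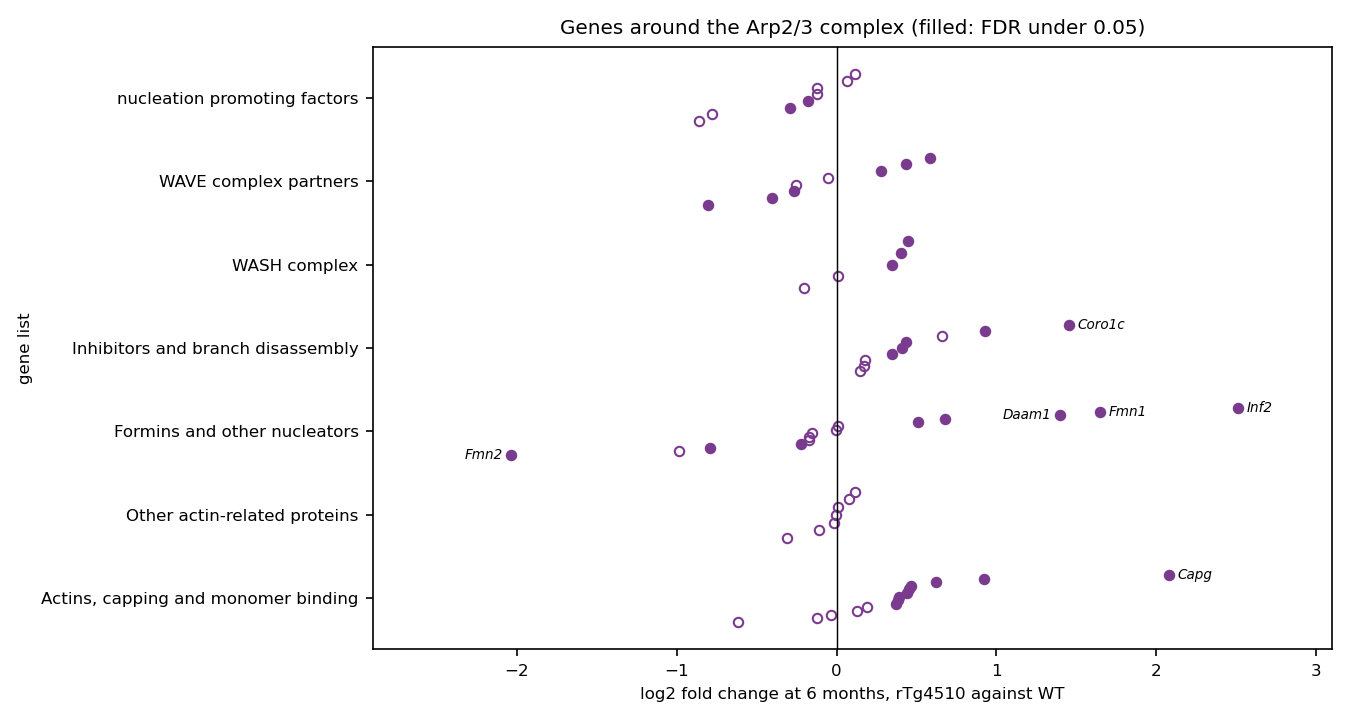
Log2 fold change of rTg4510 against WT microglia at 6 months (horizontal axis) for each measured gene of 7 lists around the Arp2/3 complex (vertical axis), with filled points at an FDR under 0.05. The lists of actins, capping and monomer binding and of inhibitors and branch disassembly have filled points above 0 and none below, led by Capg (2.08) and Coro1c (1.45).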

How the data were processed

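The deposited values are log2 gene signals. To make them, the authors added up exon reads from all runs of a library and dropped exons that stayed below 10 counts in over 80% of samples. A robust linear model then summarized each gene from its exons, and log2 values were median normalized. The submitters' processing notes name the build GRCm38. Aligner, annotation and the treatment of reads that match several genes are not given in the sources used here. The RefSeq annotation of GRCm38.p6 held 95.9% of the 18588 Entrez numbers, and 0 value columns were left unused. Groups, ages and replicate numbers came from the labels.

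Computed here with limma 3.58.1 in R 4.3.3 were 8 group means per gene over the 28 libraries that passed QC, with unmoderated variances, contrasts of genotypes and ages, and FDR values (Benjamini-Hochberg) within a contrast over all genes. A gene was a DEG where its FDR was under 0.05 and its change exceeded 1.5 fold. No gene was filtered out. The script was tested on simulated data. Count steps were inferred from the low values: 41.3% of 32552 fell within 0.003 of the log2 of a whole count plus 1.5 and 22% of a count midway, where an even spread gives 1.25%. Copies were sought with blastn 2.17.0 among GENCODE transcripts (at least 90% identity over 200 bases), and promoters came from RefSeq. Other tools were Python 3.11.15, numpy 2.4.6, pandas 2.3.3 and matplotlib 3.10.9.

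The study names 4 biological replicates per group, each a pool of animals, and the number of libraries limits the precision. The labels give both genotypes the same replicate numbers. Deviations of same-numbered libraries from their group means correlated with r of 0.13 to 0.15 at 6 months and 0.15 to 0.29 at 8 months. Differently numbered libraries gave -0.13 to 0.09 and -0.26 to -0.03, so libraries of these ages were taken as paired, on the values alone. At 2 months (0.07 to 0.17 against -0.19 to 0.08) and 4 months (-0.10 to 0.12 against -0.07 to 0.15) the ranges overlapped, and libraries were not taken as paired. The main fits had no replicate term at any age, so their errors are unpaired. The replicate block, an alternative, paired same-numbered libraries at all 4 ages.

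Alternatives were all 32 libraries, moderated variances, quantile normalization, centring on the mean of genes above the 25th percentile, those genes alone, a replicate block, only the groups compared, and each library left out. The alternatives for the gene lists were added after the data were seen. The members and lists were chosen with earlier results of these data known. Named were the 10 members, up to 4 genes of each list with the largest change at 6 months among those with an FDR under 0.05, the 5 most alike and 3 most opposite profiles to Actr3b, and the 3 most alike deviations. Abi1 and Nckap1l were named in addition, so that each call among the WAVE partners is given. Wasf1, Fhod3, Spire2 and Actl6b had no row. One gene list of the design is not reported here.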

Additional observations from a re-analysis of the deposited data

Results flagged for a closer look

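In 5 of 40 groups of 4 libraries, 1 library stood apart from the other 3 by Dixon's criterion, which chance meets in about 1 in 20 groups. These were Actr2 in WT 6 months replicate 1 (8.32, the lowest), Actr3 in WT 2 months replicate 3 (7.52, the highest), Actr3b in rTg4510 6 months replicate 1 (4.30, the lowest), Arpc2 in rTg4510 6 months replicate 3 (10.24, the lowest) and Arpc4 in WT 2 months replicate 1 (9.29, the lowest). The cause was not tested.

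The genotype difference was larger at 4 than at 2 months by 0.30 (log2) for Actr3 and by 0.57 for Arpc1b, and larger at 8 than at 2 months by 0.55 for Arpc1b and by 0.50 for Arpc5, each by the test of the difference between ages. These were 2 of the 9 subunits in each comparison, beside 5.26% and 6.65% of all genes. The call of Actr3 ended with moderated variances and with the replicate block, and that of Arpc5 with the replicate block. With all 32 libraries each of these calls ended.

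The libraries that failed QC were used in no comparison of the 28. The rTg4510 library of 4 months (replicate 3) lay above every WT library of its age for Actr2 (9.16), Actr3 (8.16), Actr3b (5.06), Arpc2 (10.25), Arpc4 (9.98), Arpc5 (7.99) and Arpc5l (8.13), and below at least 1 of them for Arpc1a (5.71), Arpc1b (8.08) and Arpc3 (6.38). The rTg4510 library of 8 months (replicate 4) lay above them for Actr3 (7.99), Actr3b (4.28), Arpc1a (6.25) and Arpc5 (7.59). The WT libraries that failed QC had the lowest Arpc1b signals of their ages, 7.16 at 4 months and 6.97 at 8 months.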

How the results depend on the processing

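Counts of subunits with an FDR under 0.05 in rTg4510 against WT microglia kept within 1.5 times of their value except at 2 months, where the 1 became 0 with all 32 libraries, quantile normalization or only the groups compared and 2 with genes above the 25th percentile, and at 8 months, where 5 became 3 with all 32 libraries. DEGs became 4 at 4 months with all 32 libraries, and 1 at 6 months with quantile normalization or centring. For the change between 2 and 4 months the count of 2 became 0 with all 32 libraries and 1 with moderated variances, a replicate block or only the groups compared. For 8 against 2 months it became 0 with all 32 libraries and 1 (Arpc1b) with the replicate block or only the groups compared. The replicate block otherwise ended the call of Arpc4 at 4 months (FDR = 0.0533), where numbers did not pair the libraries, and changed no other call of a subunit between genotypes besides that of Arpc1a given above. For 8 against 2 months within a genotype, the 3 rises in rTg4510 became 1 with all 32 libraries (Actr3) and 1 with only the groups compared, where none of the 3 passed and Actr2 did (0.225, FDR = 0.0416). The falls (2 in WT, 1 in rTg4510) became 0 with either setting.

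Leaving out single libraries gave 1 to 2, 5 to 7, 6 to 7 and 5 to 6 subunits at 2, 4, 6 and 8 months, 1 to 2 DEGs at 4 months (2 without rTg4510 replicate 1 or 4 or WT replicate 1) and 1 to 3 at 6 months (1 without WT replicate 4), 1 to 3 and 1 to 2 for the differences between ages, 0 to 4 rises with age in rTg4510 and 0 to 3 falls in WT. In the lists at 6 months it gave 0 to 2 lower nucleation promoting factors and 0 to 1 lower actins, capping and monomer binding genes.

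Values that changed sign belonged to subunits that did not pass under the same genotype contrast. Actr2 at 4 months was -0.099 with quantile normalization, -0.029 with centring and -0.145 to 0.0859 without single libraries; it was -0.0759 to 0.0071 without single libraries at 2 months and -0.063 with quantile normalization at 8 months. Arpc4 at 2 months was -0.084 with quantile normalization, -0.0066 with centring and -0.0541 to 0.0671 without single libraries, and -0.013 with quantile normalization at 8 months. Arpc5l was -0.017, -0.0059 and -0.0398 with centring at 2, 6 and 8 months, and -0.0393 with all 32 libraries at 8 months. Without single libraries it was -0.057 to 0.0683, -0.0029 to 0.0714 and -0.0587 to 0.126 at 2, 6 and 8 months. The change of Arpc5l minus Arpc5 at 4 months became 0.027 with all 32 libraries, that of Arpc1b minus Arpc1a 0.642, and that of Actr3b minus Actr3 at 8 months 2.447 with quantile normalization. The causes were not tested.

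In the lists at 6 months, lower nucleation promoting factors became 0 with all 32 libraries or only the groups compared and 1 with moderated variances or quantile normalization. With all 32 libraries, higher and lower WAVE partners, and higher WASH members each became 1 and higher actins and their partners 5. With quantile normalization, lower WASH members became 1 and lower actins and their partners 2, the last being 1 with the replicate block. Lower formins became 5 with centring and 1 with genes above the 25th percentile.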
